A study of Mus musculus with 12 samples.

Results

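A small set of miRs is known from white blood cells, and 7 of these were followed in the fetal mouse liver: mmu-miR-142a-3p and mmu-miR-142a-5p, mmu-miR-223-3p and mmu-miR-223-5p, mmu-miR-150-5p, mmu-miR-155-5p and mmu-miR-146a-5p (the prefix for mouse is left out from here on). They were taken by name from a table of 1927 mature miRs, of which 682 had a read in at least 1 library. All 7 had reads somewhere, and 4 of them passed the filter on low counts that left 388 miRs for testing. The libraries came from whole livers of female fetuses at E18.5, 5 WT and 7 *Mir483*Pat-KO littermates, on a C57BL/6J background. *Mir483*Pat-KO fetuses inherited from their father a Cre-mediated deletion of *Mir483*, a miR gene within the imprinted *Igf2* locus, through lines that began as 2 targeted clones of ES cells. WT fetuses lacked the deletion, and the labels name no treatment for either genotype. Each fetus gave 1 library, with 711810 to 1211160 reads counted on miRs in WT and 658665 to 921068 in *Mir483*Pat-KO. *miR-483-3p*, the check of the deletion, lay between 985 and 1238 CPM (reads scaled to the library total, with TMM factors) in the WT libraries and between 0 and 25.0 CPM in the *Mir483*Pat-KO libraries.

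Mature miRs guide Argonaute proteins to messenger RNAs, which they recognize mainly through the seed, bases 2 to 8 from the 5′ end. *miR-142* is made throughout the blood lineages and is often used as a mark of blood-derived cells. *miR-223* is a miR of myeloid cells, above all of neutrophils, whose production it restrains. *miR-150* is high in mature lymphocytes and targets *Myb*, whereas *miR-155* and *miR-146a* are induced when lymphocytes and macrophages are activated, the former promoting and the latter damping inflammatory signaling. The fetal liver is the main site of blood formation before birth, so that livers of this age hold blood cells among the hepatocytes. In bulk RNA, fewer cells of a type and less of a miR per cell cannot be told apart.

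The RefSeq sequences of GRCm38.p6 give mature sequences for 6 of the 7 miRs, shown here because reads are assigned to a miR by its sequence and because the seeds tell the miRs apart. Capitals mark the seed, and *miR-146b-5p* is printed for comparison with *miR-146a-5p*.
miR-142a-5p: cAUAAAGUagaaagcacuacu
miR-142a-3p: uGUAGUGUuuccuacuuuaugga
miR-223-3p: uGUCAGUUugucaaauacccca
miR-223-5p: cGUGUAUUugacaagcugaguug
miR-155-5p: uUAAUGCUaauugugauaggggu
miR-146a-5p: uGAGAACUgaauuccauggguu
miR-146b-5p: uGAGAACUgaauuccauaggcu

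Only *miR-146a-5p* shared its seed with another mature miR of the RefSeq set, *miR-146b-5p*. Counting from 1 at the 5′ end, the sequences of this pair differ at 2 bases, G18A and U21C (the *miR-146a-5p* base is given first), so their reads can be told apart only near the 3′ end. The seeds of the other 5 miRs were found in no other miR of that set.

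The *miR-142a* and *miR-223* arms each come in pairs from a single hairpin, and the hairpins are shown with both mature arms in capitals, the 5p arm first.
Mir142: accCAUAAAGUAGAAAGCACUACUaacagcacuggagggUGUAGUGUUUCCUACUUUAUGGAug
Mir223: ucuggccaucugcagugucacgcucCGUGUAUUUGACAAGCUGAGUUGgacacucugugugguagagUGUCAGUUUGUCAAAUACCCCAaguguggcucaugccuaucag

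On GRCm38, *Mir142* lies at chr11:87756864-87756927 on the plus strand, within an intron of the noncoding gene *Mir142hg*. *Mir142b* is annotated on the opposite strand of the same place, and its miR had no read in any library. *Mir223* lies at chrX:96242817-96242926 on the plus strand, in an exon of the noncoding gene *F630028O10Rik*. *Mir155* is at chr16:84714140-84714204 on the plus strand, in an exon of its noncoding host gene *Mir155hg*. *Mir150*, at chr7:45121757-45121821 on the plus strand, and the *miR-146a* gene *Mir146*, at chr11:43374397-43374461 on the minus strand, overlap no annotated gene.

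The 7 miRs together took 1.21% to 1.44% of the reads of a WT library and 1.30% to 1.47% of a *Mir483*Pat-KO library. Almost all of this came from *miR-142a-5p*, *miR-142a-3p* and *miR-223-3p*, which held between 96.9% and 99.9% of the reads of the 7. *miR-142a-5p* ranked 20th by mean level among the miRs with reads and took 0.860% to 1.11% of every library. *miR-142a-3p* ranked 52nd and *miR-223-3p* 58th. The others were low, with *miR-155-5p* 228th, *miR-223-5p* 344th, *miR-150-5p* 395th and *miR-146a-5p* 429th. These ranks compare CPM, and how evenly different miRs were captured by the library kit was not tested.

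*miR-142a-5p* was read at 11156, 9472, 9300, 10686 and 8067 CPM in WT fetuses 1 to 5, whereas the *Mir483*Pat-KO fetuses spanned 9776 to 11301 CPM with a median of 10688. *miR-142a-3p* was at 1741, 1739, 1385, 2004 and 1459 CPM in WT, and the *Mir483*Pat-KO values spanned 1707 to 2050 CPM with a median of 1909. *miR-223-3p* was at 1685, 1446, 1131, 1386 and 1505 CPM in WT, beside a *Mir483*Pat-KO span of 1334 to 1674 CPM with a median of 1590. WT fetuses 3 and 5 held the lowest values of both *miR-142a* arms, WT fetus 3 also held the lowest *miR-223-3p*, and the genotypes overlapped for all 3 miRs. *miR-223-5p*, the minor arm of its hairpin, lay at 17.2, 15.5, 16.1, 17.1 and 20.1 CPM in WT and spread wider in *Mir483*Pat-KO, over 9.83 to 23.1 CPM. Over both genotypes this miR had 7 to 20 reads per library.

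**Figure D1:**
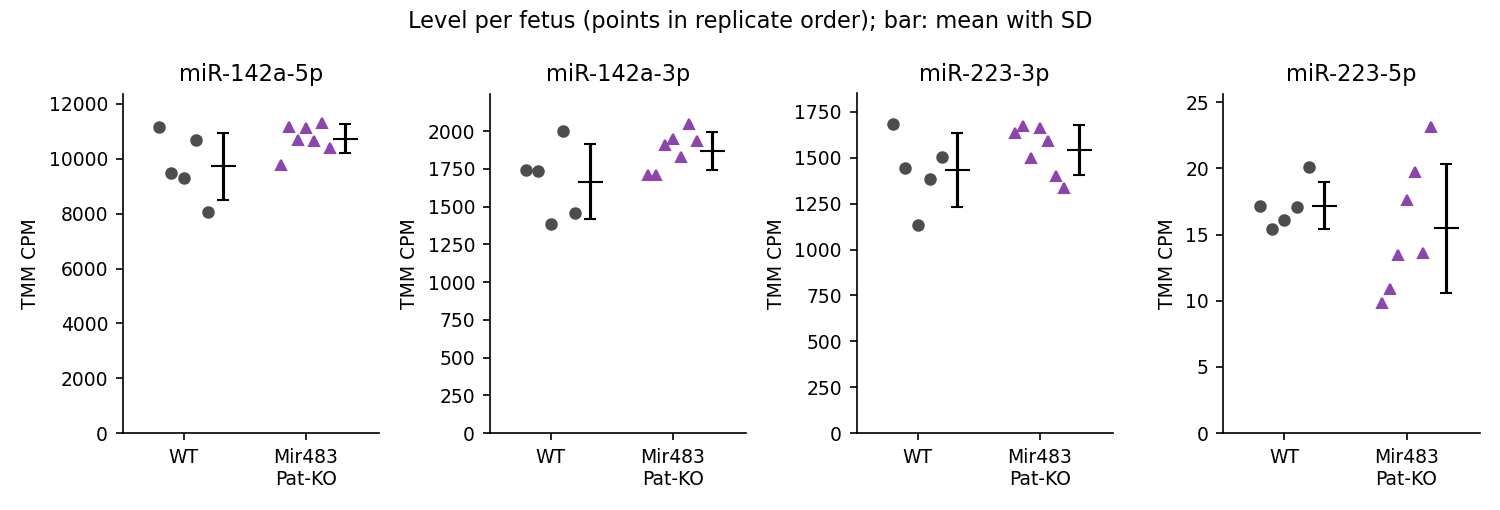
Level of 4 leukocyte miRs in each liver (y axis, TMM-scaled CPM, from 0) in WT (circles, n = 5) and Mir483Pat-KO (triangles, n = 7), with the mean and SD beside the points. The genotypes overlap in every panel, and miR-142a-5p stays between 8067 and 11301 CPM in all fetuses.

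The abundant leukocyte miRs varied from fetus to fetus about as much as other abundant miRs. Within genotypes the SD of log2 CPM was 0.13 for *miR-142a-5p*, 0.16 for *miR-142a-3p* and 0.17 for *miR-223-3p*, against a median of 0.15 over the 163 miRs with at least 100 reads in every library. Counted from the least variable of these, they came 66th, 97th and 108th. The SD that read counting alone would give is 0.016, 0.038 and 0.041.

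To find whether the leukocyte miRs depended on *Mir483*, all 388 miRs that passed the filter were fitted in edgeR, and its quasi-likelihood F-test was used with Benjamini-Hochberg adjustment over them. None of the 4 leukocyte miRs tested was called at an adjusted p under 0.05, and 0 had an unadjusted p under 0.05. The same was true of DESeq2 and limma-voom, each with 0 of 4 called and 0 at an unadjusted p under 0.05. DESeq2 gave *miR-223-5p* no adjusted p, so that miR could not be called there. Over all miRs tested, 2.06% were called, and 17.5% had an unadjusted p under 0.05. Of the 4, 3 had a higher mean in *Mir483*Pat-KO and 1 a lower one, beside 50.3% higher among all miRs tested. Their median log2 fold change was 0.12, against 0.0028 over all miRs tested. The 4 are the arm pairs of *miR-142a* and *miR-223*, so they are not independent of each other. Scaled by library size alone, the log2 fold change was 0.076 for *miR-142a-5p*, 0.10 for *miR-142a-3p*, 0.042 for *miR-223-3p* and -0.22 for *miR-223-5p*. None of the 4 separated the genotypes without overlap, which 2.84% of the miRs tested did.

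*miR-142a-5p* averaged 9736 ± 1221 CPM (SD, n = 5) over WT livers, against 10727 ± 530 CPM (SD, n = 7) without paternal *Mir483*. The log2 fold change of *Mir483*Pat-KO over WT was 0.14 (standard error 0.072, 95% interval -0.014 to 0.29, edgeR adjusted p = 0.368). *miR-142a-3p* averaged 1666 ± 249 CPM (SD, n = 5) and 1869 ± 128 CPM (SD, n = 7), a log2 fold change of 0.17 (standard error 0.087, 95% interval -0.018 to 0.35, edgeR adjusted p = 0.371). Both intervals include 0 and reach up to 0.29 and 0.35 on the log2 scale. The *miR-142a-5p* value was 0.079 without WT fetus 5, and the *miR-142a-3p* value 0.079 without WT fetus 3. In the lower range of animal numbers alone, with 4 fetuses of each genotype, they were 0.058 and 0.066 (chosen after seeing the data; edgeR adjusted p = 0.847 and 0.866).

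For the myeloid *miR-223-3p* the means were 1431 ± 201 CPM (SD, n = 5) and 1542 ± 134 CPM (SD, n = 7), a log2 fold change of 0.11 (standard error 0.090, 95% interval -0.085 to 0.30, edgeR adjusted p = 0.621). Without WT fetus 3 the log2 fold change was 0.0049, without WT fetus 1 it was 0.17, without *Mir483*Pat-KO fetus 2 it was 0.060, and in the lower range of animal numbers alone it was 0.18. *miR-223-5p* was at 17.2 ± 1.80 CPM (SD, n = 5) and 15.5 ± 4.85 CPM (SD, n = 7), a log2 fold change of -0.15 with an interval from -0.72 to 0.42 (edgeR adjusted p = 0.836), so at this depth only a much larger difference could have been seen.

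**Figure D2:**
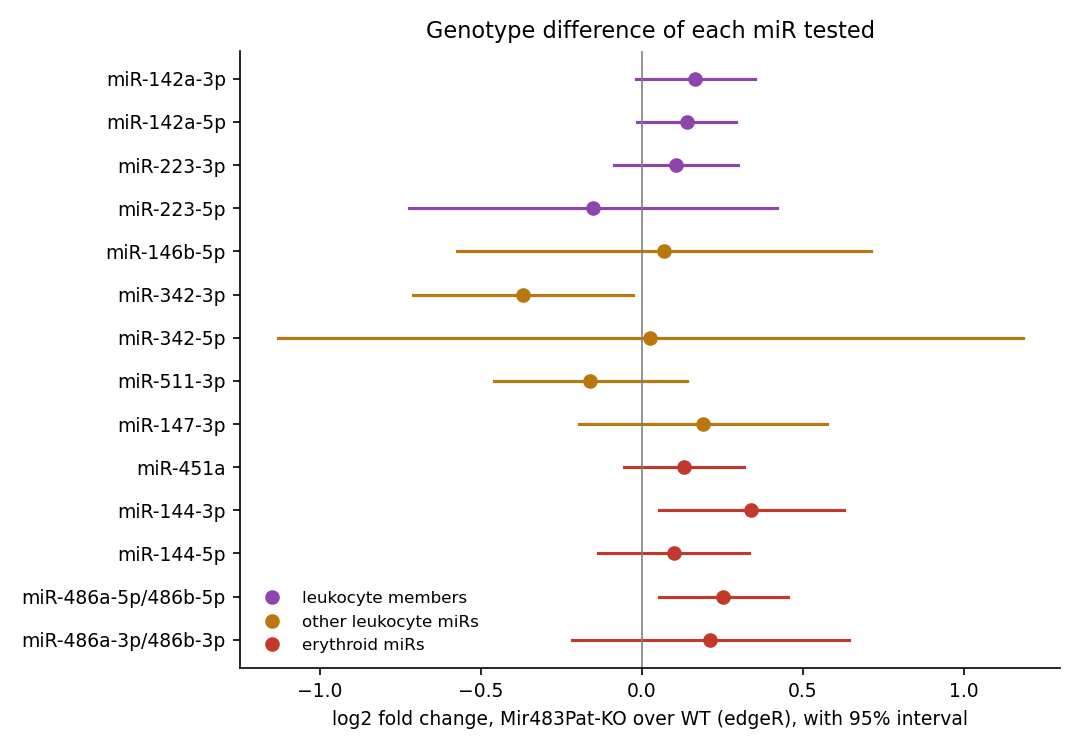
Log2 fold change of Mir483Pat-KO over WT (x axis, edgeR, points) with its 95% interval (lines) for the leukocyte miRs tested, the other leukocyte miRs and the erythroid miRs. All 4 leukocyte members have intervals that include 0, from the narrowest at miR-142a-5p (-0.014 to 0.29) to the widest at miR-223-5p (-0.72 to 0.42).

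WT libraries carry the indices 37 to 41 and *Mir483*Pat-KO libraries 42 to 48, so genotype and index order cannot be told apart. When the index number was added to the fit, the log2 fold change became 0.21 for *miR-142a-5p*, 0.048 for *miR-142a-3p*, 0.37 for *miR-223-3p* and -1.01 for *miR-223-5p*, with none called. By animal number, 4 fetuses of each genotype fall in a lower range, and 1 WT with 3 *Mir483*Pat-KO fetuses in an upper one, where the genotypes could not be compared.

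*miR-155-5p* stood apart, since it had many reads or none. WT fetus 3 had 149 reads, WT fetus 5 had 298 and *Mir483*Pat-KO fetus 2 had 173, which is 200.1, 300.1 and 269.7 CPM. The other 9 libraries, 3 WT and 6 *Mir483*Pat-KO, had 0. From the level in the 3 libraries with reads, each of those 9 would hold between 189 and 320 reads. From the other libraries of the same genotype, zeros included, the 3 WT libraries at 0 would hold 108 to 155 reads and the 6 *Mir483*Pat-KO libraries 26.1 to 35.0.

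Zeros of that kind were rare elsewhere in the table. Of the entries of the miRs that are not members, predicted at 100 reads or more from the other libraries of the genotype, 0 of 2217 were at 0, and of those predicted at 20 to 50 reads 1.07% were (10 of 934). Only 6 miRs of the table, *miR-155-5p* among them, were at 0 in some library and had a median of 40 reads or more where they were read, and the 6 include both arms of the deleted *miR-483*. The passenger arm *miR-155-3p* had no read in any library, so the other strand of the hairpin offers no second reading. Whether a 0 of *miR-155-5p* stands for the liver, the library or the counting was not tested.

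*miR-146a-5p* was low as well, with 13, 16, 14, 0 and 20 reads in WT fetuses 1 to 5, 13 reads in *Mir483*Pat-KO fetus 1 and 0 in the other 6 *Mir483*Pat-KO fetuses. It therefore had reads in 4 of 5 WT and 1 of 7 *Mir483*Pat-KO libraries. It did not pass the filter. Fitted without a filter, its log2 fold change was -2.32 (standard error 1.19, edgeR adjusted p = 0.351). It passed the filter with WT fetus 1 left out (-2.41, edgeR adjusted p = 0.314) or WT fetus 4 left out (-2.68, edgeR adjusted p = 0.124). It entered these fits mainly through the WT libraries that hold its reads, so they give no separate support for a difference. From the level in the 5 libraries with reads, 11.5 to 16.1 reads were predicted in each library at 0. From the other libraries of the same genotype, zeros included, WT fetus 4 would hold 15.3 reads and the 6 *Mir483*Pat-KO libraries 1.78 to 2.63. Predicted in that second way, 6.73% of the other entries at 10 to 20 reads (52 of 773) and 53.8% of those at 2 to 5 reads (453 of 842) were at 0. Its seed partner *miR-146b-5p* had 9 to 21 reads in WT and 6 to 25 in *Mir483*Pat-KO, with none at 0. How the counting shared reads between this near-identical pair could not be checked.

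The lymphocyte miR *miR-150-5p* had 16, 8, 8, 13 and 11 reads in WT and 0 to 12, with a median of 6, in *Mir483*Pat-KO, and a single library, *Mir483*Pat-KO fetus 1, was at 0. Without a filter its log2 fold change was -0.53 (standard error 0.60, edgeR adjusted p = 0.737), and that of *miR-155-5p* was -1.46 (standard error 1.33, edgeR adjusted p = 0.636). A floor of 3 reads per library is 2.58 to 4.03 CPM in WT, 3.37 to 4.68 CPM in *Mir483*Pat-KO, and covers counting error only. As entries predicted at 5 to 10 reads were at 0 in 22.1% of cases (191 of 863), a 0 does not bound the level of these miRs at that floor.

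**Figure D3:**
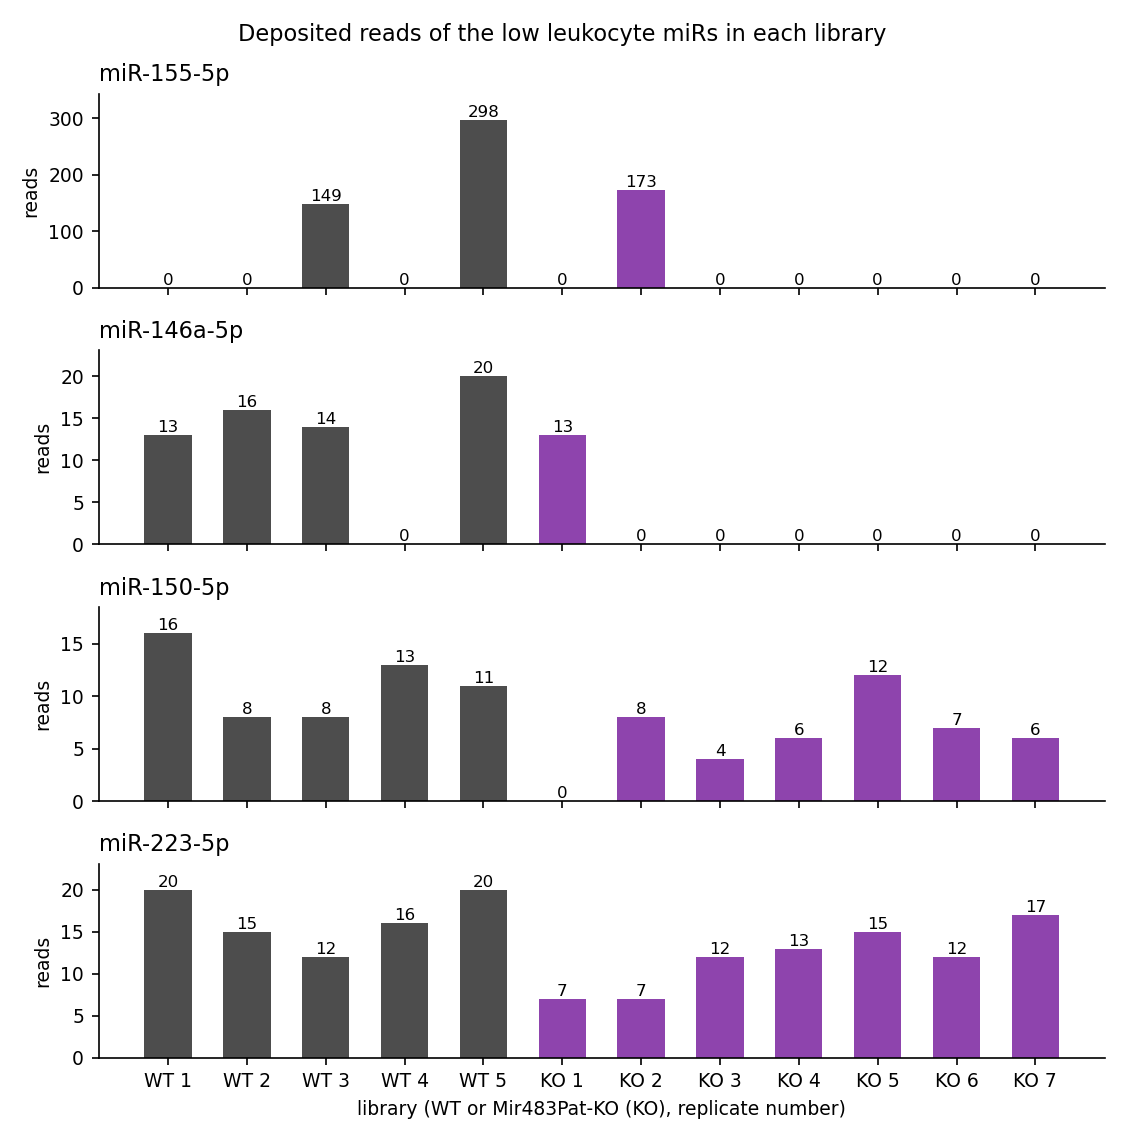
Reads (y axis, deposited counts, number above each bar) of the 4 low leukocyte miRs in each of the 12 libraries (x axis), WT in grey and Mir483Pat-KO (KO) in purple. miR-155-5p has 149 to 298 reads in 3 libraries and 0 in 9, whereas miR-223-5p has 7 to 20 reads in every library.

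The arms of a hairpin can be compared within a library without any scaling. *miR-142a-5p* outnumbered *miR-142a-3p* by 6.41, 5.45, 6.72, 5.33 and 5.53 to 1 in WT fetuses 1 to 5 and by 5.37 to 6.53 to 1, with a median of 5.72, in *Mir483*Pat-KO. The 5p arm was thus the more abundant one in every liver. The WT ratios averaged 5.89 ± 0.63 (SD, n = 5), the *Mir483*Pat-KO ratios 5.75 ± 0.37 (SD, n = 7), a difference of -0.029 on the log2 scale (standard error 0.076). In size it was below the SD between fetuses on that scale, which was 0.15 in WT and 0.090 in *Mir483*Pat-KO. An exact permutation test of the difference of means (two-sided, over 792 splits) gave p = 0.676, where the smallest possible is 0.00126. The direction turned when WT fetus 1 (0.0035) or WT fetus 3 (0.020) was left out.

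At *Mir223* the 3p arm was the more abundant, by 98.1, 93.6, 70.2, 81.1 and 74.8 to 1 in WT and by 57.8 to 166 to 1 in *Mir483*Pat-KO. The means were 83.5 ± 12 (SD, n = 5) and 109 ± 38.6 (SD, n = 7). The ratio rests on the 7 to 20 reads of *miR-223-5p* and was not tested between genotypes. *miR-142a-5p* exceeded *miR-223-3p* 6.89 ± 1.12 (SD, n = 5) to 1 in WT livers and 7.00 ± 0.72 (SD, n = 7) to 1 in CPM in *Mir483*Pat-KO.

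**Figure D4:**
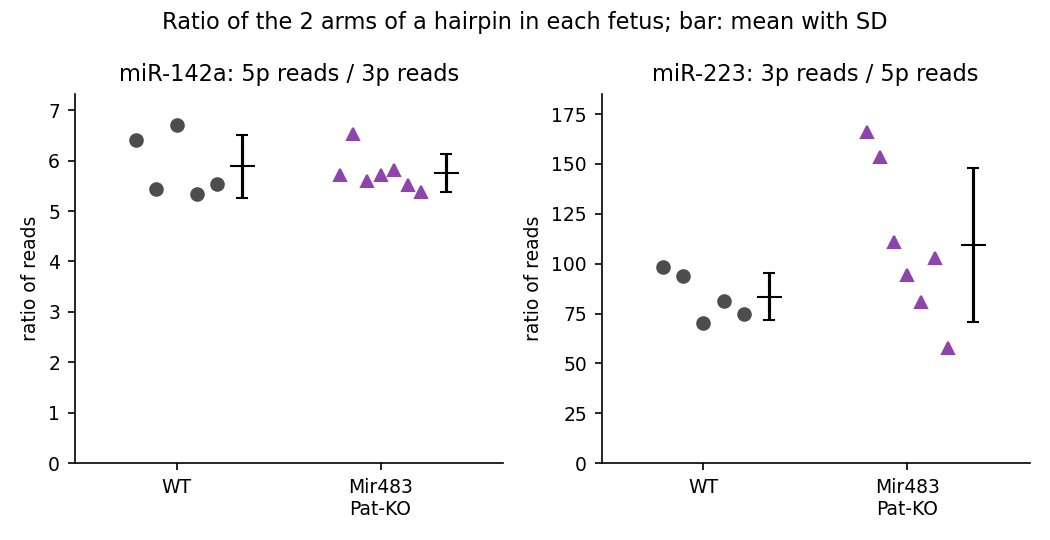
Ratio of the reads of the 2 arms of the miR-142a hairpin (left) and the miR-223 hairpin (right) in each liver (y axes, from 0), WT as circles (n = 5) and Mir483Pat-KO as triangles (n = 7), with mean and SD. The miR-142a ratio stays between 5.33 and 6.72 in all fetuses, whereas the miR-223 ratio, which rests on few 5p reads, runs from 57.8 to 166.

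Whether the leukocyte miRs rise and fall together from liver to liver was examined over the 12 fetuses in 7 relations, with log2 CPM and 100000 permutations per relation. The 2 arms of *miR-142a* had a Pearson r of 0.76 (permutation p = 0.00583, adjusted p = 0.0408) and a Spearman rho of 0.60 (permutation p = 0.0430, adjusted p = 0.224). With 1 fetus left out r stayed between 0.67 and 0.82, though the adjusted p passed 0.05 in 8 of the 12 fits (0.053 to 0.147, without WT 2, 3 or 5 or *Mir483*Pat-KO 1, 3, 4, 5 or 6). Leaving out the pair of fetuses farthest from the median *miR-142a-3p*, WT 3 and 5, also narrows the range of levels. Without them r was 0.42 (adjusted p = 0.422) and rho 0.32, so the call rests on that pair as well. After subtracting the mean of each genotype r was 0.67 (adjusted p = 0.118) and rho 0.73 (adjusted p = 0.0679). In the 7 *Mir483*Pat-KO fetuses alone r was 0.49 (adjusted p = 0.372) and rho 0.36. In the 8 fetuses of the lower animal-number range r was 0.64 (adjusted p = 0.224) and rho 0.33. No correlation was computed over fewer than 6 fetuses, which leaves out the WT fetuses alone and the upper range.

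*miR-142a-5p* and the myeloid *miR-223-3p* had an r of 0.34 (rho 0.42, adjusted p of r = 0.392), with -0.0083 in the *Mir483*Pat-KO fetuses alone. In the 8 fetuses of the lower animal-number range r was 0.69 (exact permutation p = 0.0446, adjusted p = 0.224) and rho 0.88 (exact permutation p = 0.00724, adjusted p = 0.0507). *miR-142a-3p* and *miR-223-3p* had an r of 0.27 but a rho of -0.16 (adjusted p of r = 0.465), and their r was -0.67 in *Mir483*Pat-KO alone (adjusted p = 0.264), 0.55 in the lower range (rho 0.048, adjusted p of r = 0.224) and -0.39 without WT fetus 3. Neither relation passed the adjustment in any of these sets of fetuses.

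For comparison with red cells and hepatocytes, *miR-451a*, a miR of erythroid cells, and *miR-122-5p*, the main hepatocyte miR, were set beside the leukocyte miRs. *miR-142a-5p* had an r of 0.58 with *miR-451a* (permutation p = 0.0465, adjusted p = 0.163) and of 0.39 with *miR-122-5p* (adjusted p = 0.371). *miR-223-3p* had an r of -0.13 with *miR-451a* (adjusted p = 0.676) and of 0.48 with *miR-122-5p* (adjusted p = 0.265). None of these 4 relations passed the adjustment.

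Among the 162 other miRs with at least 100 reads in every library, those most like *miR-142a-5p* were *miR-425-5p* (r = 0.89), *miR-181b-5p* (0.86) and *miR-93-5p* (0.86), as a description over the same 12 libraries. Its own 3p arm came 8th and *miR-223-3p* 41st, and the median r over the 162 was 0.026. The miRs most like *miR-223-3p* were *miR-122-3p* (r = 0.62), *miR-425-5p* (0.59) and *miR-93-5p* (0.55), with *miR-142a-5p* 18th, *miR-142a-3p* 28th and *miR-451a* 118th. All these values share the depth and the scaling of a library.

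**Figure D5:**
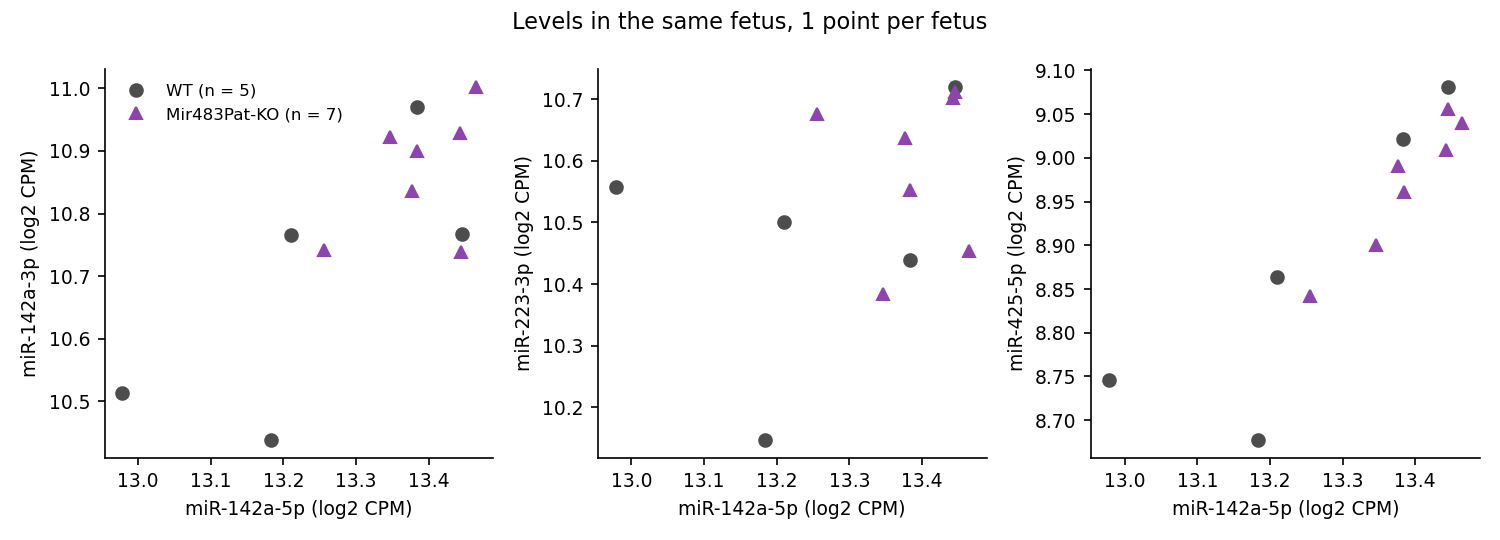
Log2 CPM of miR-142a-3p (left), miR-223-3p (middle) and miR-425-5p (right) against miR-142a-5p (x axes) in the same liver, 1 point per fetus, WT as circles (n = 5) and Mir483Pat-KO as triangles (n = 7); the axes do not start at 0. WT fetuses 3 and 5 lie at the lower left for miR-142a-3p and miR-425-5p, with r of 0.76 and 0.89, and the middle panel scatters, with r of 0.34.

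Other miRs known from white blood cells were fewer in reads. Of 12 such miRs, 7 had reads and 5 were tested, with a median log2 fold change of 0.026. Of those tested, 0 were called and 1 had an unadjusted p under 0.05, beside 2.06% and 17.5% of all miRs tested. The 12 together took 0.0208% to 0.0235% of a WT library and 0.0141% to 0.0241% of a *Mir483*Pat-KO library. *miR-342-3p*, named after its values were seen as the one at an unadjusted p under 0.05, spanned 80.6 to 106 CPM over the WT libraries and 46.1 to 103 CPM over the others, a log2 fold change of -0.37 (standard error 0.16, edgeR adjusted p = 0.250). When the index number was added to the fit it became 0.0079, but genotype and index order cannot be told apart in these libraries.

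The miRs listed for other cell types of the fetal liver gave 0 calls too, beside 2.06% called over all miRs tested. The 5 erythroid entries took 2.55% to 3.10% of a WT library and 2.58% to 3.63% of a *Mir483*Pat-KO library. Their median log2 fold change was 0.21, and 2 of the 5 had an unadjusted p under 0.05, again beside 17.5% of all miRs tested. The most abundant, *miR-486a-5p* with *miR-486b-5p* in 1 entry, had a log2 fold change of 0.25 (edgeR adjusted p = 0.185), and *miR-451a* one of 0.13 (edgeR adjusted p = 0.480). The 5 hepatocyte miRs took 18.2% to 19.4% of a WT library and 16.4% to 20.9% of a *Mir483*Pat-KO library, with log2 fold changes of 0.0099 for *miR-122-5p* and 0.068 for *miR-192-5p*. The endothelial miRs (2 tested, 0.101% to 0.132% in WT and 0.0699% to 0.119% in *Mir483*Pat-KO), the stellate cell miRs (5 tested, 1 at an unadjusted p under 0.05, 0.198% to 0.382% and 0.237% to 0.379%) and the *miR-181* family, listed as progenitor miRs (4 tested, 1.33% to 1.83% and 1.31% to 1.75%), overlapped between genotypes as well. The part of these cell types in the levels of the leukocyte miRs was not tested.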

How the data were processed

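Small RNA libraries (TruSeq Small RNA kit, NovaSeq6000) were made by the authors from 12 livers, 1 fetus each. The deposited values are raw counts of reads per mature miR, made with miRge, neither normalized nor pooled. No deposited count is 1 and the lowest above 0 is 2, so a deposited 0 may stand for a single read. How this came about was not tested. The build in the labels is GRCm38, and positions are from GENCODE and RefSeq on that build. Genotypes came from the sample labels and columns from the animal numbers. miRs were filtered with edgeR's filterByExpr, scaled by TMM and tested with estimateDisp, glmQLFit (legacy = TRUE) and glmQLFTest in edgeR 4.0.16 (R 4.3.3), genotype alone in the design, with Benjamini-Hochberg adjustment over the 388 miRs tested. Log2 CPM used a prior count of 2, and 0.5 was added to each count for the tested log2 arm ratio only, the printed ratios being of the counts as deposited. Correlations used 100000 permutations, or all orders with fewer than 10 fetuses. Alternatives used RLE, library size alone, no filter, a minimum of 10 counts in each library, the default dispersion of edgeR 4, DESeq2 1.42.0 with its default settings, limma-voom (limma 3.58.1), replicate block, animal range, index number and leaving out each fetus.

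The members, the cell type lists and the tests were chosen with earlier results of these data known. Named were every member, up to 2 abundant miRs of a list, the 3 miRs most like *miR-142a-5p* and *miR-223-3p*, and *miR-483-3p*; *miR-342-3p* and the 6 miRs with zeros among high counts were singled out after their values were seen. Fetuses sharing a replicate number are different animals. On simulated counts for 388 miRs, of which 200 changed, 66.3% of 1.5-fold, 89.1% of 2-fold and 92.3% of 4-fold changes were called, and 2.41% of calls were unchanged miRs. In the deposited counts only 2.06% of the miRs tested were called. The Benjamini-Hochberg adjustment is less strict when many miRs change, so these shares are likely too high for the deposited counts. The mRNA libraries were not analysed here.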

Additional observations from a re-analysis of the deposited data

Results flagged for a closer look

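Among the measures of the leukocyte miRs, 22 groups of fetuses were examined for a value far from the rest, and 3 were found, each in *Mir483*Pat-KO. In normally distributed values chance gives this in about 1 group in 20. Where all fetuses of a group but 1 are at 0, that fetus is flagged by construction. The rate therefore does not apply to *miR-155-5p* and *miR-146a-5p* here. *miR-155-5p* was at 269.7 CPM in *Mir483*Pat-KO fetus 2 and at 0 in the other 6. *miR-146a-5p* was at 18.3 CPM in *Mir483*Pat-KO fetus 1 and at 0 in the other 6. The ratio of *miR-142a-5p* to *miR-142a-3p* was 6.53 in *Mir483*Pat-KO fetus 2 and 5.37 to 5.82 in the others of that genotype, within the WT range of 5.33 to 6.72.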

How the results depend on the processing

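No leukocyte miR was called under any alternative or with any 1 fetus left out. The number called among all miRs tested was 14 with library size alone, 26 with DESeq2, 5 with the animal range as a factor, 3 with index number added and 2 in the lower animal range alone (chosen after seeing the data), and 3 to 12 without 1 fetus. It moved by over 1.5 times without WT fetus 2 or 3 or *Mir483*Pat-KO fetus 4, 5, 6 or 7. Deviations of same-numbered fetuses had r from -0.24 to 0.23, and only for number 5 was the same-numbered *Mir483*Pat-KO fetus the closest. The numbers were therefore not used as a pairing in the main fit. Litter was in no fit, and its part was not tested. A replicate block gave 3 calls among all miRs and a *miR-142a* arm difference of 0.0022 on the log2 scale (exact p = 1.0). Without 1 fetus that difference ran from -0.063 to 0.020. With index number added *miR-342-3p* turned to 0.0079, in a fit where genotype and index order cannot be told apart. For the *miR-142a* arms, r was 0.75 with RLE (adjusted permutation p = 0.0496) and 0.64 with library size alone (adjusted permutation p = 0.166). It was 0.67 as deviations from the genotype mean, 0.49 in *Mir483*Pat-KO alone and 0.64 in the lower range. Without the 2 farthest fetuses it was 0.42, and without 1 fetus 0.67 to 0.82. *miR-142a-5p* with *miR-223-3p* fell to 0.0075 with library size alone and turned to -0.0083 in *Mir483*Pat-KO alone. *miR-142a-3p* with *miR-223-3p* turned to -0.67 there and to -0.64 without the 2 farthest fetuses, and ran from -0.39 to 0.36 without 1 fetus (negative without WT fetus 3). *miR-223-3p* with *miR-451a* was -0.46 with library size alone and turned to 0.0013 in the lower range. Without 1 fetus it ran from -0.38 to 0.011 (positive without *Mir483*Pat-KO fetus 1). In levels relative to *miR-122-5p*, an alternative chosen after seeing the data, r of the *miR-142a* arms was 0.91 (same adjusted p as the next), *miR-142a-5p* with *miR-451a* rose to 0.87 (permutation p adjusted over the 5 relations so computed = 0.0004) and *miR-223-3p* with *miR-451a* turned to 0.35. Both values of a pair are then divided by the same miR, which by construction adds a shared term to each relation. The cause of the other changes was not tested. Depth limits *miR-223-5p*, *miR-150-5p* and *miR-146a-5p*, each read at most 20 times in a library.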
